A study of Mus musculus with 24 samples.

Results

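The miR-17 to miR-92a cluster is a single primary transcript that carries 6 miRNA hairpins. Its 8 mature miRNAs described here are miR-17-5p, miR-17-3p, miR-18a-5p, miR-19a-3p, miR-20a-5p, miR-19b-3p, miR-92a-1-5p and miR-92a-3p. They were chosen by name, and all 8 had a row in each of the 3 tables, which hold 1657 (day 14), 1707 (day 90) and 1767 (day 180) mature miRNAs and 1950 different names in all. Small RNA was sequenced from whole lung of C57BL/6 mice, an inbred laboratory strain, aged 6 to 8 weeks when they were divided into groups. The irradiated mice received 15 Gy of X-rays to the whole thorax with the rest of the body spared, and the control mice were kept without irradiation. Lungs were taken at day 14, day 90 and day 180, with 4 irradiated and 4 control libraries at each time, 24 in all. Nothing in the labels states that each library is a separate animal, and p-values therefore measure the spread between these libraries, which may be technical. No group carried an engineered allele, and sex is not stated.

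The host gene of the cluster is a classical target of the transcription factor Myc, and the cluster is known for keeping cells in division and alive during lung development, in lymphocyte precursors and in many tumours. Drosha cuts the hairpins from the nuclear transcript, Dicer trims each hairpin to a duplex, and 1 arm of the duplex is usually kept by an Argonaute protein while the other is degraded. Bases 2 to 8 of the kept arm, the seed, pair with target messages. Members of the miR-17 seed group act on the cell cycle inhibitor p21, on E2F factors and on the TGF-beta type II receptor, miR-18a on Ctgf and Smad4, and miR-92a on Bcl2l11 (Bim) and, in endothelium, on Klf2.

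The mature sequences show which members can act on the same messages and which reads are nearly alike. The seeds are in capitals, and the sequences are those of RefSeq on GRCm38.p6, given in their order along the transcript.
mmu-miR-17-5p: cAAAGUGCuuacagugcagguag
mmu-miR-17-3p: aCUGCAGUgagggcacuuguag
mmu-miR-18a-5p: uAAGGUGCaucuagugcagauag
mmu-miR-19a-3p: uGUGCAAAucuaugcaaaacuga
mmu-miR-20a-5p: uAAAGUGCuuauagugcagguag
mmu-miR-19b-3p: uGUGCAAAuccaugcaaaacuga
mmu-miR-92a-1-5p: aGGUUGGGauuugucgcaaugcu
mmu-miR-92a-3p: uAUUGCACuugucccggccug
miR-17-5p and miR-20a-5p share the seed AAAGUGC and miR-19a-3p and miR-19b-3p share GUGCAAA. miR-18a-5p (AAGGUGC), miR-92a-3p (AUUGCAC), miR-17-3p (CUGCAGU) and miR-92a-1-5p (GGUUGGG) each have a seed that no other member has. Counting positions from 1 at the 5′ end, miR-20a-5p differs from miR-17-5p by C1U and C12U, and miR-19b-3p differs from miR-19a-3p by U11C alone. miR-18a-5p differs from miR-17-5p at 6 positions, of which A4G lies in the seed. No member had the same counts as another row of its table.

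The 6 hairpins lie within 836 bases on the plus strand of chromosome 14, at chr14:115043671-115044506 (GRCm38, GENCODE annotation). All 6 fall in exon 2 (chr14:115043271-115046727) of Mir17hg, a long non-coding RNA gene, in the order Mir17, Mir18, Mir19a, Mir20a, Mir19b-1 and Mir92-1. A paralogous cluster on the X chromosome (minus strand) holds second copies of the miR-19b and miR-92a hairpins, Mir19b-2 at chrX:52741983-52742066 and Mir92-2 at chrX:52741838-52741928. The mature miR-19b-3p and miR-92a-3p are the same from both loci, so their reads cannot be assigned to 1 of them. The arms that are particular to a locus can be assigned. Of the X copies, miR-92a-2-5p and miR-19b-2-5p had at most 1 count in any library. The chromosome 14 arms miR-92a-1-5p and miR-19b-1-5p had 31 to 204 and 4 to 40 counts. Other products of the X cluster were less rare. A library held up to 637 counts of miR-363-3p (day 14) and up to 175 of miR-20b-5p (day 90). Their lowest counts, both of day 180, were 18 and 15. Rare 5p arms therefore do not show that few 3p reads came from the X copies, and the division was not tested. The X cluster also encodes miR-106a-5p (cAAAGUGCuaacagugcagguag), which differs from miR-17-5p by U10A. It had 1 to 16 counts in a library, against 95 to 919 for miR-17-5p. How the authors' counting treats reads that match 2 such sequences was not stated, so the division between near-identical members is uncertain. It may also differ between days. Outside the cluster, miR-486a-5p and miR-486b-5p had the same range of counts at day 14 (1560 to 2532) and at day 90 (1145 to 3737). At day 180 they differed, with 57 to 4614 and 640 to 1917 counts. Whether this affects the members at day 180 or the comparisons between days was not tested.

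Libraries held 2832205 to 3695133 counts, and the lung's own markers were present throughout: the endothelial miR-126a arms, the miR-200 family and miR-141 of epithelium, and the miR-143, miR-145a, miR-199a and miR-214 set of mesenchyme were all detected. At day 180, irradiated library 1 stood apart in makeup, with 68709 CPM of the 5 epithelial markers together against 30447 to 39203 CPM in the other 3 irradiated libraries and 39934 to 43280 CPM in controls. It also had the fewest counts of the 24. CPM here is the count of a miRNA scaled to a common library total (TMM) within a day. In whole lung, fewer cells of a type and less RNA per cell cannot be told apart.

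miR-92a-3p made up most of the cluster's reads. Levels are scaled within a day, so ranges over the days set separately normalised values side by side. Its group means lay between 4988 and 7957 CPM, it held 73.8% to 89.0% of the summed CPM of the 8 members in every library, and it ranked 38th to 62nd of all miRNAs by count. miR-19b-3p (group means of 234 to 746 CPM) and miR-20a-5p (254 to 392 CPM) followed, with ranges that did not overlap at day 14 and overlapped at day 90 and day 180. miR-17-5p (80.6 to 139 CPM) and miR-17-3p (84.4 to 135 CPM) came next, and the ranges of these arms of 1 hairpin overlapped in all 6 groups. miR-18a-5p was the sixth in each group, at 55.1 to 79.0 CPM, then miR-92a-1-5p at 12.9 to 40.5 CPM. miR-19a-3p was last in each group, at 2.22 to 6.60 CPM, from 6 to 44 counts a library. These levels count reads and need no correction for length, since the mature miRNAs are all 21 to 23 bases long. How many reads PCR made from 1 molecule is not known, and how well each sequence is ligated was not measured.

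**Figure D1:**
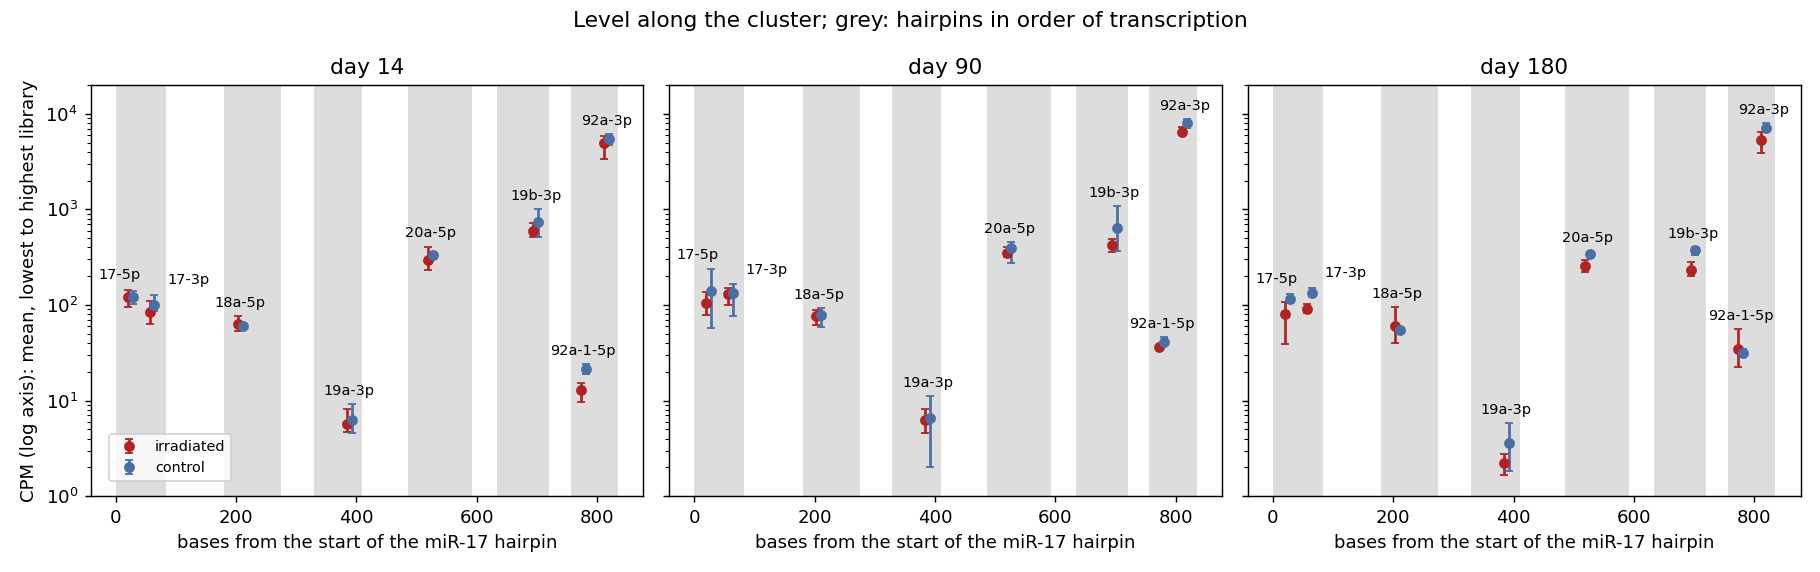
Level of each member in CPM (log axis) against the distance of its centre from the start of the miR-17 hairpin in bases, with 1 panel a day. Points are group means of 4 libraries and bars run from the lowest to the highest library, irradiated in red and control in blue, with hairpins in grey. miR-19a-3p, at 388 bases, sits lowest and miR-92a-3p, at 815 bases, highest on all 3 days.

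The level did not follow the position on the transcript. miR-19a-3p and miR-19b-3p differ by 1 base, yet miR-19b-3p averaged 587 CPM against 5.74 CPM for miR-19a-3p in irradiated lungs of day 14. The 5p and 3p arms of the miR-17 hairpin stood at similar levels, while those of the miR-92a-1 hairpin stood far apart.

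The design asks how each member differed between irradiated and control lung at each time. No member passed edgeR's quasi-likelihood test at an adjusted p of 0.05 on any day, where the adjustment runs over all miRNAs tested. All 8 members were tested at day 14 and day 90 and 7 at day 180, where miR-19a-3p fell under the filter on low counts. Over all miRNAs, edgeR called 0 of 499 at day 14, 2 of 558 at day 90 (0.358%) and 0 of 552 at day 180. DESeq2 called 0.2%, 3.41% and 5.07% of them, and 5.41%, 12.7% and 18.3% had an unadjusted edgeR p under 0.05 in either direction. Counted at an unadjusted p under 0.05 and lower in irradiated lung, there was 1 member at day 14, 1 at day 90 and 3 at day 180, against 3.61%, 4.48% and 7.43% of all miRNAs tested, and no member passed this as higher. limma-voom called no member on any day. DESeq2 called none at day 14 and day 90 and 2 of 7 at day 180, miR-17-3p and miR-19b-3p, both lower in irradiated lung, where it called 1.81% of all miRNAs as lower. At day 90 it called 0.717% of all miRNAs as lower.

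The log2 fold change of irradiated over control was below 0 for 6 of 8 members at day 14, 8 of 8 at day 90 and 5 of 7 at day 180, against 48.1%, 52% and 41.1% of all miRNAs tested. Under another setting or without 1 library the sign turned for miR-17-5p, miR-18a-5p, miR-19a-3p and miR-92a-3p at day 14, for miR-17-3p, miR-18a-5p and miR-19a-3p at day 90, and for miR-18a-5p and miR-92a-1-5p at day 180. The median log2 fold change of the members was -0.15 at day 14, against 0.01 over all miRNAs. It was -0.16 against -0.02 at day 90 and -0.44 against 0.13 at day 180. That median over all miRNAs at day 180 depended on the scaling, with 0.15 under RLE and 0.09 under upper-quartile factors, and miR-18a-5p and miR-92a-1-5p, both with a log2 fold change above 0, stood close to it. The ranges of the groups did not overlap for 1 member at day 14 (miR-92a-1-5p), for none at day 90 and for 4 at day 180 (miR-17-3p, miR-20a-5p, miR-19b-3p and miR-92a-3p). All 5 were lower in irradiated lung, where 1.6%, 2.33% and 6.52% of all miRNAs tested were lower without overlap on the 3 days. No member was higher without overlap, as 0.802%, 4.84% and 5.43% of all miRNAs were.

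**Figure D2:**
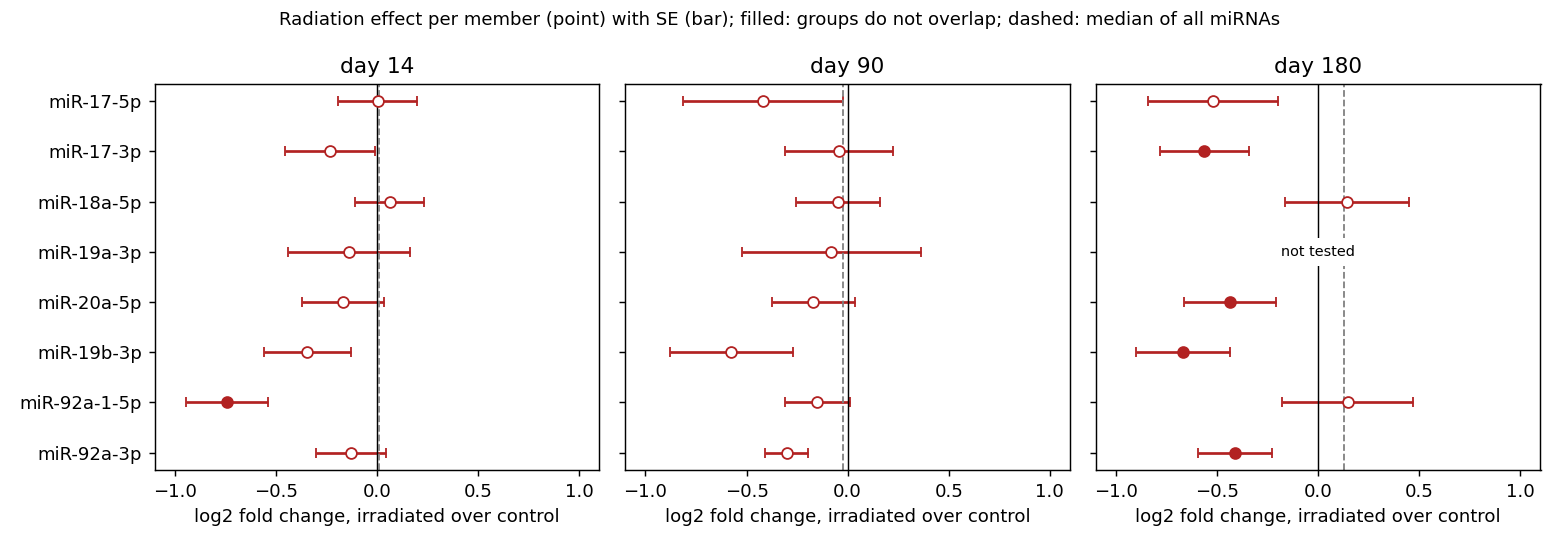
Log2 fold change, irradiated over control, of each member at day 14, day 90 and day 180, with SE as bars. Filled points mark members whose groups do not overlap, and the dashed line is the median of all miRNAs tested that day, which lies at 0.13 for day 180. The 4 filled points of day 180 lie between -0.67 and -0.41.

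Within the cluster the miR-17 seed group has 2 members, directed at p21 and the TGF-beta type II receptor. At day 180, mmu-miR-20a-5p stood at 225, 271, 224 and 297 CPM in irradiated libraries 1 to 4 and at 323, 354, 338 and 362 CPM in control libraries 1 to 4. Every irradiated library lay below every control. The means were 254 ± 35.7 and 344 ± 17.7 CPM (SD, n = 4 each), with a log2 fold change of -0.44 ± 0.23 (SE) and an edgeR adjusted p of 0.348, and 0.130 to 0.642 over the alternatives. mmu-miR-17-5p had 39.2, 102, 73.6 and 108 CPM in irradiated against 131, 116, 111 and 105 CPM in control libraries of that day. Of the irradiated libraries 3 lay below all controls, and library 1, the one with the high epithelial sum, was far the lowest. Its log2 fold change was -0.52 ± 0.32 (adjusted p in edgeR = 0.419), and -0.30 without irradiated library 1.

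At day 90, miR-17-5p was spread most widely in the controls. It stood at 136, 115, 79.4 and 85.8 CPM in the irradiated libraries and 57.3, 168, 93.9 and 236 CPM in the controls, so control libraries 1 and 4 enclosed all the others. The log2 fold change of -0.42 ± 0.40 was -0.06 without control library 4. miR-20a-5p stood at 355, 399.9, 314 and 325 CPM in the irradiated libraries and 273, 384, 458 and 452 CPM in the controls, with control library 1 again the lowest, and a log2 fold change of -0.17 ± 0.21. At day 14, miR-17-5p averaged 122 ± 20.5 CPM in irradiated lungs and 122 ± 17.5 CPM in their controls (SD, n = 4 each), within the spread of either group. miR-20a-5p averaged 299 ± 80.5 and 336 ± 26.2 CPM there, with irradiated library 3 above and libraries 1 and 2 below all controls.

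mmu-miR-18a-5p, which targets Ctgf and Smad4, differed from its controls by less than their spread at day 14 and day 90. It averaged 63.2 ± 10.00 CPM in irradiated lungs and 60.5 ± 3.64 CPM in their controls at day 14, and 76.5 ± 11.7 against 79.0 ± 15.4 CPM at day 90 (SD, n = 4 each). At day 180 it stood at 39.6, 47.8, 60.0 and 95.9 CPM in the irradiated libraries and 51.0, 58.7, 51.3 and 59.4 CPM in the controls. The controls lay close together and the irradiated libraries fell on both sides of them, 2 below and 2 above. The log2 fold change of 0.14 ± 0.31 became -0.15 without irradiated library 4.

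The miR-19 seed group rests on miR-19b-3p, which held nearly all its reads. At day 180, mmu-miR-19b-3p stood at 228, 283, 226 and 201 CPM in the irradiated libraries and 408, 371, 330.5 and 383 CPM in the controls. All 4 irradiated libraries lay below all 4 controls. The means were 234 ± 34.6 and 373 ± 32.4 CPM (SD, n = 4 each). The log2 fold change of -0.67 ± 0.23 (SE) had an edgeR adjusted p of 0.259. With DESeq2 the adjusted p was 0.0202, the lowest of values between 0.0202 and 0.496 across alternatives, and without irradiated library 1 the log2 fold change was -0.67.

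At day 90, miR-19b-3p stood at 424, 435, 489 and 354 CPM in the irradiated libraries and 362.9, 550.4, 542 and 1079.9 CPM in the controls. Control library 4 was far the highest, and the log2 fold change of -0.57 ± 0.30 (adjusted p in edgeR = 0.503) was -0.21 without it. At day 14 it stood at 595, 508, 720.3 and 525 CPM in the irradiated libraries and 1003, 732, 735 and 513 CPM in the controls, which overlapped (log2 fold change -0.35 ± 0.22). mmu-miR-19a-3p had 6, 7, 11 and 6 counts in irradiated and 22, 17, 8 and 6 counts in control libraries at day 180, too few to be tested. At day 90 its highest library, with 44 counts, was also control library 4. It averaged 6.28 ± 1.74 CPM in irradiated lungs and 6.60 ± 3.90 CPM in their controls there, and 5.74 ± 1.67 against 6.32 ± 2.04 CPM at day 14.

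mmu-miR-92a-3p, the most abundant member and the one known from endothelium, had 9438 to 29683 counts in a library. At day 90 it stood at 6611, 5941, 7194 and 6087 CPM in the irradiated libraries and 7779, 8769, 8187 and 7092 CPM in the controls. Only irradiated library 3 reached into the control range. The log2 fold change of -0.30 ± 0.11 (SE) had an edgeR adjusted p of 0.269 and ran from -0.38 to -0.25 over the alternatives. At day 180 the levels were 3896, 6505, 5665 and 5324 CPM in the irradiated libraries and 6659, 6573, 7917 and 7289 CPM in the controls. The groups did not overlap, though irradiated library 2 lay just under the lowest control. The means were 5347 ± 1087 and 7109 ± 626 CPM (SD, n = 4 each), with a log2 fold change of -0.41 ± 0.18 (adjusted p in edgeR = 0.273) and -0.30 without irradiated library 1. At day 14 it stood at 3364, 5805, 5512 and 5271 CPM in the irradiated libraries and 4746, 6079.7, 5696 and 5299.6 CPM in the controls. The lower irradiated mean rests on library 1, since the log2 fold change of -0.13 ± 0.17 became 0.04 without it.

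**Figure D3:**
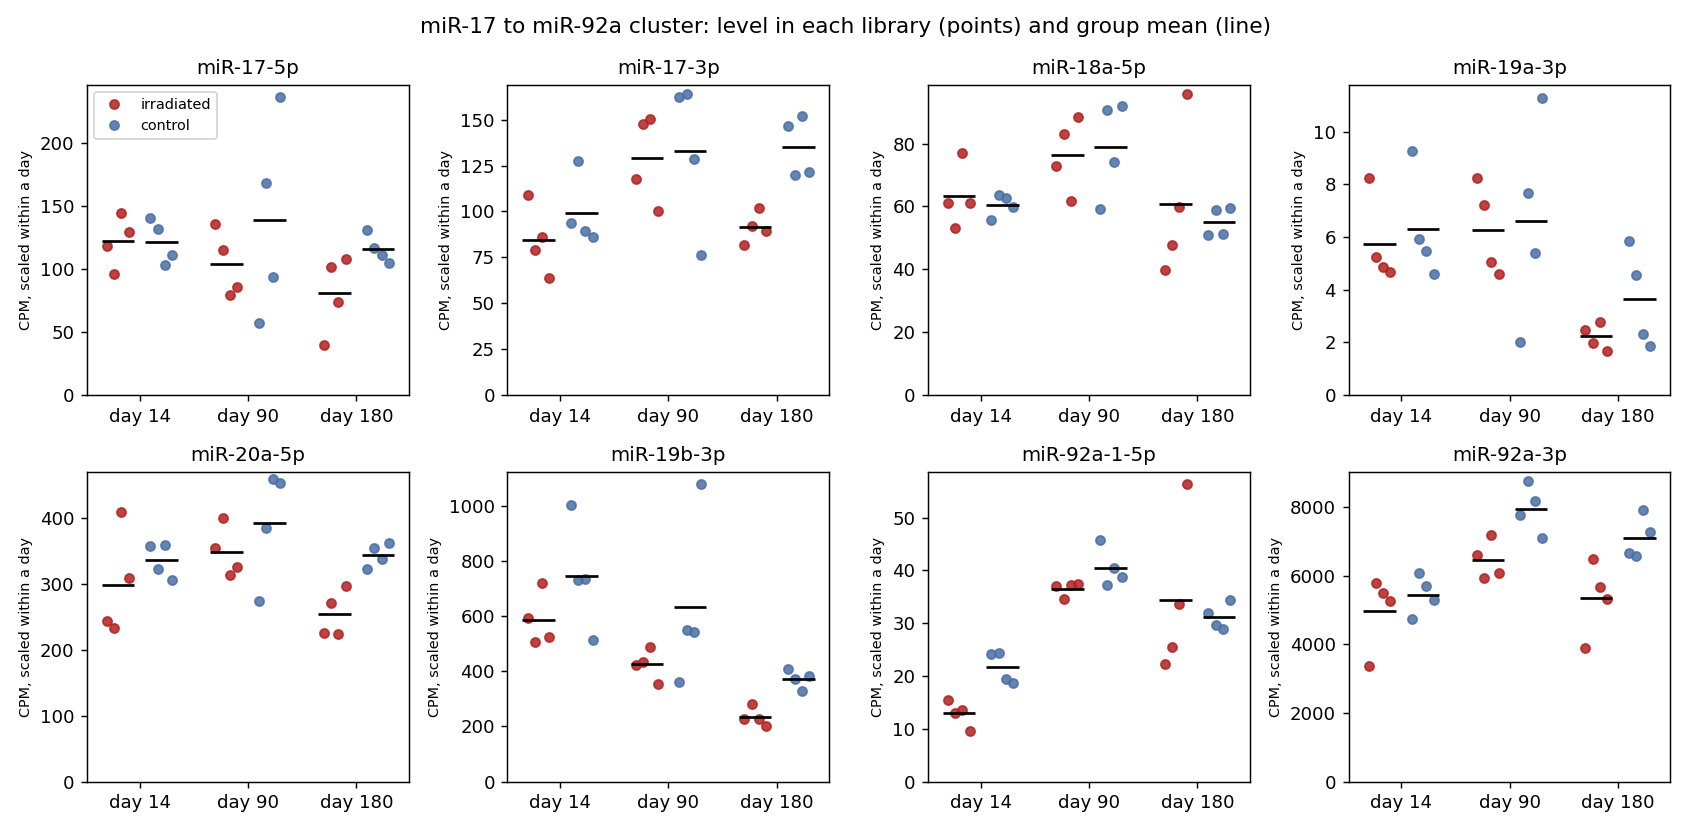
CPM of each of the 8 members in each of the 24 libraries, irradiated in red left of control in blue at each day, with group means as lines and each axis starting at 0. At day 180 the red points of miR-17-3p, miR-20a-5p, miR-19b-3p and miR-92a-3p all lie below the blue ones, and at day 14 those of miR-92a-1-5p do.

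The remaining members are the partner arms of the miR-17 and miR-92a-1 hairpins. mmu-miR-17-3p, the partner of mmu-miR-17-5p, stood at 81.7, 92.2, 102 and 89.5 CPM in the irradiated libraries and 147, 119.9, 152 and 121 CPM in the controls at day 180. The groups were well apart, with the highest irradiated library below the lowest control. The means were 91.3 ± 8.35 and 135 ± 16.7 CPM (SD, n = 4 each), with a log2 fold change of -0.56 ± 0.22 (SE) and an edgeR adjusted p of 0.259. With DESeq2 the adjusted p was 0.0374, the lowest of values between 0.0374 and 0.509 across alternatives. At day 90 it averaged 129 ± 24.2 CPM in irradiated lungs and 133 ± 41.1 CPM in their controls, and 84.4 ± 18.7 against 99.2 ± 19.1 CPM at day 14, with overlapping groups on both days.

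mmu-miR-92a-1-5p, the rare partner of miR-92a-3p, showed the largest log2 fold change of any member on any day, at day 14. It stood at 15.5, 13.1, 13.6 and 9.63 CPM in the irradiated libraries and 24.1, 24.3, 19.4 and 18.8 CPM in the controls, from 47, 40, 42 and 31 counts against 78, 82, 57 and 61 counts. No irradiated library reached the lowest control. The means were 12.9 ± 2.44 and 21.7 ± 2.96 CPM (SD, n = 4 each), with a log2 fold change of -0.74 ± 0.20 (SE) and an edgeR adjusted p of 0.804, and 0.197 to 0.979 over the alternatives. At day 90 it averaged 36.5 ± 1.29 CPM in irradiated lungs and 40.5 ± 3.70 CPM in their controls, and 3 of 4 irradiated libraries lay below the lowest control. At day 180 it stood at 22.3, 25.4, 33.7 and 56.4 CPM in the irradiated libraries and 31.9, 29.6, 28.8 and 34.4 CPM in the controls. Irradiated library 4 was above and libraries 1 and 2 below all controls, and the log2 fold change of 0.15 ± 0.32 became -0.19 without library 4.

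Between days, the largest difference in effect among the members was that of miR-92a-1-5p, 0.86 ± 0.32 (log2, SE) at day 180 minus day 14, with an edgeR adjusted p of 0.299, and 0.60 ± 0.32 at day 90 minus day 14 (adjusted p in edgeR = 0.996). The first of these was 0.57 without irradiated library 4 of day 180. The other arm of the hairpin, miR-92a-3p, differed by -0.31 ± 0.23 and -0.17 ± 0.23 in the same comparisons. For miR-17-3p the effect at day 180 minus that at day 90 was -0.55 ± 0.31 (adjusted p in edgeR = 0.430). No member's effect differed between days at an adjusted p of 0.05, and over all 624 miRNAs tested edgeR called 0 in each comparison of days, where DESeq2 called 1 to 3. Among members, an unadjusted p under 0.05 was found once, for miR-92a-1-5p at day 180 against day 14. Reads that match near-identical sequences may have been divided differently at day 180, and the part of this in these comparisons was not tested.

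Summed over the 8 members, the cluster stood at 6105 ± 1161 CPM in irradiated lungs and 8167 ± 600 CPM in their controls at day 180 (SD, n = 4 each). The irradiated libraries ran from 4534 to 7327 CPM and the controls from 7627 to 8930 CPM. At day 90 the sum was 7585 ± 582 CPM in irradiated lungs and 9381 ± 618 CPM in their controls, with ranges of 7083 to 8331 and 8742 to 10171 CPM. The groups did not overlap on either day. At day 14 they did, at 6162 ± 1126 CPM in irradiated lungs and 6847 ± 527 CPM in their controls. The sum follows miR-92a-3p. Without it the other 7 members summed to 758 ± 96.7 CPM in irradiated lungs and 1058 ± 34.8 CPM in their controls at day 180. The ranges again did not overlap (639 to 849 against 1013 to 1097 CPM). Of the 7, miR-19b-3p and miR-20a-5p had the highest means. miR-18a-5p (60.8 against 55.1 CPM) and miR-92a-1-5p (34.4 against 31.2 CPM) had higher means in irradiated lungs. At day 90 the 7 summed to 996 to 1222 CPM in the irradiated libraries and 963 to 1986 CPM in the controls, which overlapped. A sum over chosen members is given with no test.

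The 2 arms of the miR-17 hairpin did not move together from library to library. Within a library, miR-17-3p had 0.495 to 0.968 counts for each count of miR-17-5p at day 14. The ratio ran from 0.323 to 2.83 at day 90, and from 0.83 to 2.08 at day 180. The extremes were both controls of day 90. Control library 1 had 561 counts of miR-17-3p and 198 of miR-17-5p, and control library 4 had 297 and 919. Across the 24 libraries the root mean square difference of the arms, in log2 CPM after centring each on its day, was 0.57, the 25th of the 28 pairs of members when ordered from the closest. miR-20a-5p and miR-92a-3p, from different hairpins, were the closest pair at 0.26. This difference also grows with each member's own spread around its day mean. That spread was 0.47 for miR-17-5p and 0.32 for miR-17-3p, and 0.25 for both miR-20a-5p and miR-92a-3p. The ranks therefore do not order the pairs by how far they moved together. In the hairpin of miR-92a-1 the 5p arm held 0.182% to 1.05% of both arms' counts, with the X copy adding to the 3p arm to an unknown extent.

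**Figure D4:**
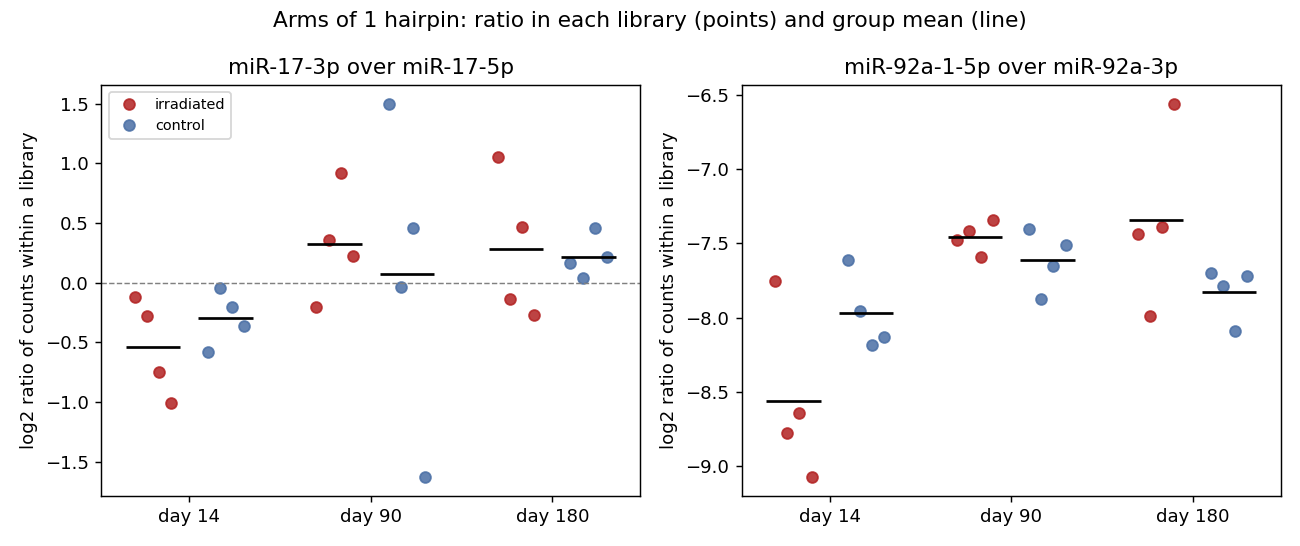
Log2 ratio of counts, with 0.5 added to each count, between the arms of the miR-17 hairpin (left) and of the miR-92a-1 hairpin (right), 1 point a library, irradiated in red left of control in blue, with group means as lines. The control points of miR-17 at day 90 run from -1.63 to 1.50, wider than any other group.

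Ratios between members within a library do not depend on scaling, and 8 ratios were compared at each day, 24 in all. The ratio of miR-92a-1-5p to miR-17-5p at day 14 was the only one whose groups did not overlap. Its mean log2 ratio was -3.22 ± 0.41 in irradiated and -2.48 ± 0.08 in control lungs (SD, n = 4 each), lower in 4 of 4 irradiated libraries. The two-sided exact permutation p was 0.0286, the smallest that 4 against 4 allows, and 0.549 after Benjamini-Hochberg adjustment over the 24. Pairing by replicate number, at which the data of day 14 hint, was run as an alternative. The exact test then cannot go below 0.125, and the adjusted p of this ratio was 0.6. The ratio of miR-17-3p to miR-17-5p differed by -0.24, 0.25 and 0.06 (log2, irradiated minus control) on days 14, 90 and 180. That of miR-92a-1-5p to miR-92a-3p differed by -0.59, 0.15 and 0.48, with exact permutation p of 0.114, 0.257 and 0.143. None of the 24 passed an adjusted p of 0.05.

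The miR-17, miR-18, miR-92 and miR-17-3p seeds are shared with miRNAs outside the cluster, whereas the seed of miR-92a-1-5p belongs to it alone among the annotated miRNAs. In the miR-17 seed family the cluster's miR-17-5p and miR-20a-5p held 12.4% to 15.0% of the family's CPM in the group means, because miR-93-5p (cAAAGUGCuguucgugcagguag), of the cluster in Mcm7 on chromosome 5, stood at 2216 to 3031 CPM. The whole family, 6 measured miRNAs, averaged 2705 ± 526 CPM in irradiated lungs and 3151 ± 119 CPM in their controls at day 180. By name, miR-19a-3p and miR-19b-3p held all reads of the miR-19 seed family, and miR-18a-5p held 93.1% to 96.8% of the miR-18 family. These shares are not those of a locus, since reads of miR-19b-3p and miR-92a-3p can also come from their X copies. In the miR-92 seed family miR-92a-3p held 61.1% to 66.7% of the family's CPM in the group means, and miR-92b-3p (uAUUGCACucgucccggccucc), miR-32-5p (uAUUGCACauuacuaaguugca) and miR-25-3p (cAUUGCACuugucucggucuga) most of the rest.

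The miR-92 seed family as a whole averaged 8344 ± 1409 CPM in irradiated lungs and 11627 ± 853 CPM in their controls at day 180 (SD, n = 4 each), with ranges of 6359 to 9609 and 11087 to 12889 CPM that did not overlap. At that day miR-92b-3p, from a separate gene on chromosome 3, averaged 1818 ± 191 CPM in irradiated lungs and 2862 ± 315 CPM in their controls, with a log2 fold change of -0.65 ± 0.18 (adjusted p in edgeR = 0.163). miR-25-3p averaged 329 ± 73.8 against 549 ± 116 CPM (-0.74 ± 0.28, edgeR adjusted p = 0.259). The log2 fold change was -0.39 ± 0.23 for miR-32-5p. For miR-363-3p of the X cluster, at 10.5 against 9.43 CPM, it was above 0, at 0.16 ± 0.30. At day 90 the log2 fold changes of the family members also lay on both sides of 0. There miR-32-5p averaged 1147 ± 161 CPM in irradiated lungs and 666 ± 147 CPM in their controls (log2 fold change 0.78 ± 0.20, edgeR adjusted p = 0.119), while miR-25-3p averaged 492 ± 48.9 against 859 ± 377 CPM. None of these passed the test.

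**Figure D5:**
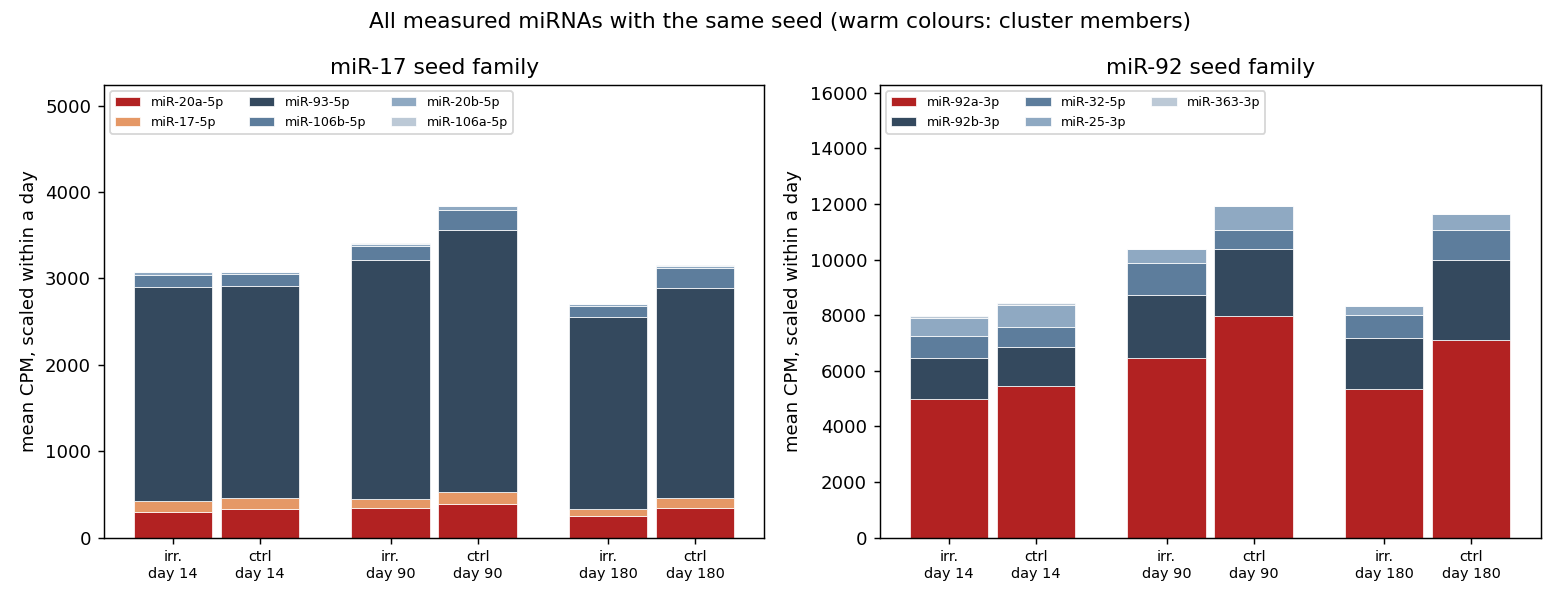
Mean CPM of every measured miRNA with the miR-17 seed (left) and the miR-92 seed (right), stacked, irradiated left of control at each day, with cluster members in warm colours. miR-93-5p fills most of the miR-17 family bars and miR-92a-3p most of the miR-92 family bars.

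Of the related loci, the Mcm7 cluster had 2 of 4 tested miRNAs below 0 at day 14, 5 of 5 at day 90 and 4 of 5 at day 180, with a median log2 fold change of -0.13 at day 180 against 0.13 over all miRNAs, and none called. Among the arms of the chromosome 14 hairpins that are not members, miR-18a-3p, miR-19b-1-5p and miR-20a-3p were measured on each day. miR-19a-5p was detected at day 90 only, with 0 to 2 counts. At day 14 these arms summed to 9.21 to 11.3 CPM in the irradiated libraries and 9.48 to 22.2 CPM in the controls. The sums were 13.3 to 21.0 against 18.6 to 25.8 CPM at day 90, with 3 of 3 tested arms below 0. At day 180 they were 14.7 to 31.0 against 15.5 to 21.5 CPM, with 2 of 3 below 0 and miR-18a-3p at 0.50 ± 0.38. None of these arms was called. The X cluster had 2 of 2 tested miRNAs above 0 at day 14, 2 of 2 below 0 at day 90 and 2 of 3 above 0 at day 180. None of them was called. Its miR-20b-5p had log2 fold changes of 0.23 ± 0.29 at day 14 and -0.08 ± 0.47 at day 180. miR-20b-5p of that cluster (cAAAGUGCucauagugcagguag), which differs from miR-20a-5p by U1C and U10C, averaged 25.7 ± 8.42 CPM in irradiated lungs and 43.9 ± 9.14 CPM in their controls at day 90 (log2 fold change -0.77 ± 0.27, edgeR adjusted p = 0.269).

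Among 366 other miRNAs with a mean of at least 10 CPM in each table, the 5 nearest to the mean profile of the members over the 24 libraries were miR-27b-3p, miR-29a-3p, miR-93-5p, miR-30b-5p and miR-29c-3p. Their root mean square differences in day-centred log2 CPM were 0.17, 0.19, 0.20, 0.21 and 0.22, against a median of 0.45. The mean profile itself varies by 0.21, so a miRNA that did not vary at all would lie about as near as the last of these. miR-93-5p is the Mcm7 miRNA with the seed of miR-17-5p.

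Marker miRNAs of other cell types had log2 fold changes on both sides of 0 on each day. At day 14 all 4 lymphocyte, 3 ciliated, 2 myeloid and 2 stratified epithelium markers were below 0. All 5 erythroid and 2 endothelial markers were above 0 there, and none was called. Of the endothelial markers 1 of 2 was below 0 at day 90 and at day 180. Of the mesenchymal markers 2 of 5 were below 0 at day 180, where miR-145a-5p was lower without overlap (-0.86 ± 0.26, edgeR adjusted p = 0.224). At day 90 all 4 lymphocyte markers, the arms of miR-150 and miR-342, had log2 fold changes below 0, and they summed to 11422 to 17280 CPM in the irradiated libraries and 16219 to 27430 CPM in the controls, none of them at 0 and none called. Both leukocyte markers, the arms of miR-142a, were above 0 (0.33 ± 0.30 each) and both myeloid markers, the arms of miR-223, below 0, none called. On that day the 6 markers of striated muscle all had log2 fold changes above 0 (median 1.44), and they summed to 942 to 3877 CPM in the irradiated libraries and 357 to 1273 CPM in the controls. Of these mmu-miR-133b-3p was called (log2 fold change 2.48 ± 0.36, edgeR adjusted p = 0.0221). The liver miRNA miR-122-5p stood at 611 to 1004 CPM in the irradiated libraries and 154 to 446 CPM in the controls of day 90, without overlap (log2 fold change 1.89 ± 0.36, edgeR adjusted p = 0.0760). All 5 epithelial and all 3 ciliated cell markers also had log2 fold changes above 0 there, none called. At day 180 the lymphocyte sums were 16454 to 20179 CPM in the irradiated libraries and 16799 to 23363 CPM in the controls, which overlapped, with 1 of 4 below 0. Of the 4, miR-342-5p was higher in irradiated lung without overlap (log2 fold change 1.40 ± 0.45, edgeR adjusted p = 0.251). At day 180 the 2 markers of stratified epithelium, miR-203-3p and miR-205-5p, both had log2 fold changes below 0, and they summed to 582 to 790 CPM in the irradiated libraries and 818 to 891 CPM in the controls, which did not overlap. The 2 neural markers, miR-124-3p and miR-9-5p, both had log2 fold changes above 0, with sums of 52.8 to 150 CPM in the irradiated libraries and 29.4 to 48.9 CPM in the controls. Erythroid markers, 4 of 5 below 0 at day 180, summed to 19665 to 39738 CPM in the irradiated libraries. The controls, at 27188 to 33500 CPM, lay within that range. Its upper end was irradiated library 1, the one with the high epithelial sum. Irradiated libraries 2 to 4 stood at 28406, 19665 and 21551 CPM. No marker was called at day 180. The part of these markers in the members' levels was not tested.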

How the data were processed

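Total RNA was extracted with Trizol and small RNA was isolated on a gel, ligated to adaptors, reverse transcribed and amplified by PCR, per the labels' protocols. The authors deposited a table a day with raw counts per mature miRNA and library, with RPM values (headed exp) and with group means of both. The deposited mean counts (a signal averaged over 4 libraries) and mean RPM are not printed here. The deposited RPM values are the counts divided by a library total larger than the table's sum, from the values. The submitters' processing notes name Bowtie2 and the build GRCm38.p6 without saying what each was used for. The annotation, unique molecular identifiers and adaptor trimming are not given in the sources used here.

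Each day was tested with edgeR 4.0.16 (filterByExpr, TMM, quasi-likelihood, Benjamini-Hochberg over all miRNAs, threshold 0.05) in R 4.3.3, checked on simulated data. Effects were compared between days in 1 fit of the 24 libraries. SE values are derived from the F statistic. Alternatives were other scalings and filters, DESeq2 1.42.0, limma 3.58.1 (voom, and log2 of deposited RPM + 1), a replicate block and leaving out each library. Ratios of counts (0.5 added) were tested by exact permutation with scipy 1.17.1. The main tests paired no libraries, and the replicate block was run at each day as an alternative only. At day 14 all 4 same-numbered pairs deviated together (correlations of 0.15 to 0.46), a hint of pairing from the data and not from the labels. Irradiated library 2 of that day, at 0.15, correlated more with a control library of another number. All 8 members, fixed lists of related and marker miRNAs and the 5 most alike were named. Members and lists were chosen with earlier results of these data known.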

Additional observations from a re-analysis of the deposited data

Results flagged for a closer look

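Of 66 sets of 4 libraries checked (the 8 members, the cluster sum and the arm ratios in each group), 2 held 1 library far from the other 3 by Dixon's criterion, which marks about 1 in 20 sets by chance. miR-19a-3p stood at 8.22 CPM in irradiated library 1 of day 14 and at 4.66 to 5.23 CPM in the other 3 irradiated libraries, from 25 counts against 15 or 16. miR-92a-1-5p stood at 34.6 CPM in irradiated library 2 of day 90 and at 37.0 to 37.4 CPM in the other 3, a small difference in a set that lies close together.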

How the results depend on the processing

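edgeR's counts over all miRNAs moved with the settings. At day 14 (0 called) there were 7 with no filter, 1 with DESeq2 and 1 with all 24 libraries in one fit. At day 90 (2 called) there were 5 with upper-quartile factors, 18 with no filter, 0 with a mean of at least 10 CPM, 19 with DESeq2 and 0 with all 24 libraries. At day 180 (0 called) there were 18 with no filter, 28 with DESeq2 and 32 with all 24 libraries, and no member was among these 32. Differences between days (0 called) gave 1, 3 and 2 with DESeq2 for day 90 minus 14, 180 minus 14 and 180 minus 90. The cause was not tested. Leaving out 1 library gave 0 to 1 calls for day 14, 0 to 7 for day 90, 0 to 5 for day 180, and 0, 0 to 18 and 0 to 10 for those differences.

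The replicate block called 0 miRNAs at each day, 2 fewer than without it at day 90, and 0 in each comparison of days. It changed no member's call. With the block, miR-17-5p at day 14 stood at -0.0017, and miR-17-3p and miR-19a-3p at day 90 at 0.00017 and 0.043. Same-numbered libraries did not all deviate together at day 90 (correlations of -0.17 to 0.39) or day 180 (-0.38 to -0.12), where they share a number only.

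Signs turned in these cases. miR-17-5p at day 14 stood at -0.0024 with no filter, -0.0020 with limma-voom and -0.038 with deposited RPM. At day 90 miR-18a-5p stood at 0.0083 with upper-quartile factors and 0.0042 with RPM, miR-17-3p at 0.0011 with limma-voom and 0.040 with RPM, and miR-19a-3p at 0.11 and 0.036. The difference for miR-19b-3p, day 180 minus 90, was 0.0050 with upper-quartile factors and -0.45 to 0.12 without 1 library, and its difference day 90 minus 14 was -0.43 to 0.18 without 1 library. The difference day 90 minus 14 also turned for miR-20a-5p (10 of 23 alternatives), miR-19a-3p (8 of 22) and miR-18a-5p (2 of 23). Day 180 minus 90 turned for miR-17-5p (6 of 23) and miR-18a-5p (1 of 23), and day 180 minus 14 for miR-18a-5p (2 of 23). The log2 ratio difference of miR-17-3p to miR-17-5p ran from -0.31 to 0.73 at day 90 and from -0.20 to 0.24 at day 180 without 1 library, and that of miR-92a-1-5p to miR-17-5p from -0.24 to 0.52 at day 90. Leaving out 1 library gave -0.072 to 0.11 for miR-17-5p, -0.034 to 0.14 for miR-18a-5p, -0.34 to 0.13 for miR-19a-3p and -0.20 to 0.044 for miR-92a-3p at day 14. The ranges were -0.26 to 0.070 for miR-17-3p, -0.18 to 0.033 for miR-18a-5p and -0.39 to 0.29 for miR-19a-3p at day 90, and -0.15 to 0.29 for miR-18a-5p and -0.19 to 0.29 for miR-92a-1-5p at day 180. The cluster sum kept its direction under every alternative run, with -0.22 to -0.03, -0.36 to -0.27 and -0.52 to -0.30 (log2) over the libraries left out at day 14, 90 and 180.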
